A study of Mus musculus with 6 samples.

Results

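The clustered histone genes of the mouse encode the proteins that package newly made DNA. They were taken as every gene symbol in the count tables that begins with Hist1h, Hist2h, Hist3h or Hist4h and has at least 10 raw counts in 3 or more of the 6 cultures. Of the 35976 symbols in each table, 69 have such a name, and 60 of these met the count rule. The 60 genes comprise 5 of class H1, 14 of H2A, 16 of H2B, 12 of H3 and 13 of H4, and include the pseudogene Hist3h2bb-ps. By cluster, 47 lie in Hist1 on chromosome 13, 10 in Hist2 on chromosome 3, 2 in Hist3 on chromosome 11 and 1 in Hist4 on chromosome 6 (mm10, GENCODE M21).

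The study asked whether prolonged exposure to HC-HA/PTX3, a hyaluronan complex purified from human amniotic membrane, alters gene expression in sensory neurons. Dorsal root ganglion (DRG) neurons were taken from lumbar ganglia of adult C57BL/6 mice of both sexes and cultured with fetal bovine serum, nerve growth factor and glial cell line-derived neurotrophic factor. After 24 h on the dish, 3 cultures received vehicle and 3 received 15 µg/mL HC-HA/PTX3 for a further 24 h. By the methods and the sample records, total RNA depleted of ribosomal RNA was sequenced, whereas the study's results speak of transcripts with a poly(A) tail, which most histone mRNAs lack. The vehicle libraries held 42516054, 42617496 and 54117547 counts in total for replicates 1, 2 and 3, and the treated libraries held 37998071, 37434266 and 38420247. Levels are given as CPM, counts divided by the library size and multiplied by 1e6, after scaling by the trimmed mean of M-values (TMM), and 1 CPM stood for 37.1 to 56.0 counts. For a gene with 0 counts the data allow up to 3 counts, or at most 0.0808 CPM in any library, when counting error alone is considered. A legend of the study calls the cultures biological replicates, but the labels do not say that they came from separate animals. Where same-numbered cultures are compared, p-values measure the spread of the treated-to-vehicle difference between these pairs. Where they are not, p-values measure the spread between cultures of a group. Either spread may be technical.

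Core histones H2A, H2B, H3 and H4 form the nucleosome, and the linker histone H1 binds the DNA where it enters and leaves. Most clustered histone genes are transcribed mainly in S phase, when DNA is copied, and their mRNAs end in a conserved stem-loop that is bound by the stem-loop binding protein Slbp, in place of a poly(A) tail. Mature sensory neurons do not divide, whereas glia, fibroblasts and other cells of a ganglion culture can. A few clustered genes also give polyadenylated mRNAs in cells that have left the cycle.

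Of the 60 genes, 43 fell after HC-HA/PTX3 and 0 rose, against 5.38% called lower, 3.32% called higher and 8.7% called in either direction among the 18277 genes tested. Genes were called at adjusted p < 0.05 and a log2 fold change beyond 0.5 in either direction, in edgeR's quasi-likelihood test that took the replicate number as a block. The median log2 fold change of the histone genes was -1.06, and that of all genes tested was -0.01. At an unadjusted p under 0.05 in the same test, 49 histone genes were lower and 1 was higher, against 3411 lower and 2657 higher of the 18277. ComBat-seq followed by limma-trend called 1 higher while DESeq2 and limma-voom with the block called 0 higher. All 3 treated cultures lay below all 3 vehicle cultures for 31 of the 60 genes, against 8.57% of all genes tested. The treated culture was the lower of its pair in all 3 pairs for 50 of the 60, against 5238 of the 18277. These shares of all genes tested are the ones to set beside the class, cluster and list counts below. Without the block, edgeR called 0 of the 60, with 0% of all genes called, a smallest adjusted p of 0.244 among them and 28 of them lower at an unadjusted p under 0.05. The median log2 fold change was then -0.96, so the calls rest on comparing cultures of the same number while the size of the difference was similar without it. In these bulk libraries, fewer cells that transcribe histone genes and less histone RNA per cell cannot be told apart.

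**Figure D1:**
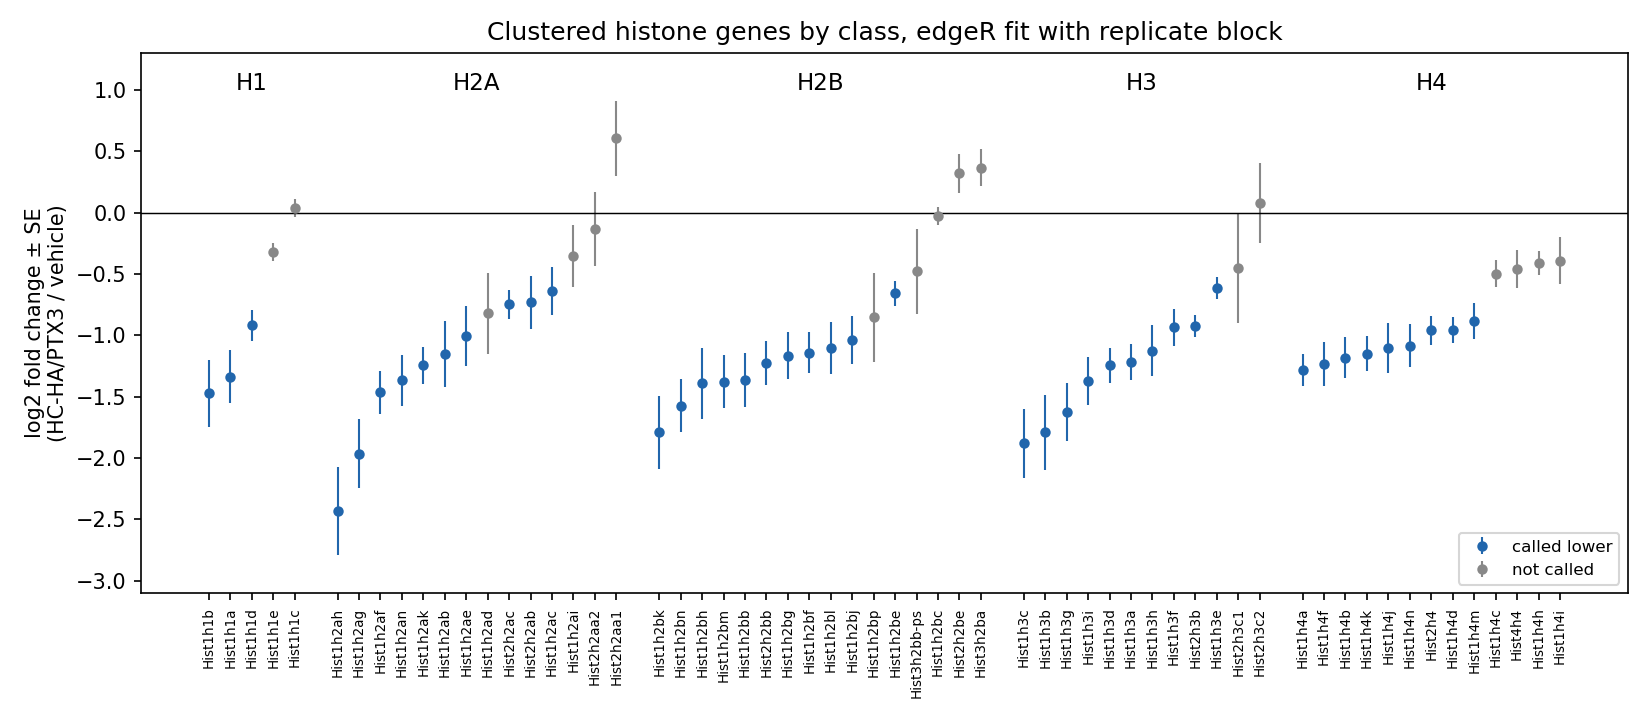
Log2 fold change (HC-HA/PTX3 over vehicle) with its standard error for each of the 60 clustered histone genes, ordered within class, from the edgeR fit with the replicate block (n = 3 cultures per group). The 43 genes called lower are blue and the 17 not called are grey, and the fitted values run from -2.43 for Hist1h2ah to 0.61 for Hist2h2aa1.

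Summed over the 60 genes, the level was 1172, 1142 and 818 CPM in vehicle replicates 1, 2 and 3, and 689, 746 and 426 CPM in HC-HA/PTX3 replicates 1, 2 and 3. Replicate 3 was the lowest culture of both groups, and every treated culture was below every vehicle culture. Within pairs, the treated culture held 0.588, 0.653 and 0.521 of the level of its vehicle culture. The genes took 0.110%, 0.115% and 0.0847% of all counts in the vehicle libraries and 0.0673%, 0.0755% and 0.0437% in the treated ones.

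The linker histones had the smallest relative difference in summed level of the 5 classes, at 263 ± 34.9 CPM in the vehicle cultures and 198 ± 34.8 CPM in the treated cultures (SD, n = 3 each). Of the 5 H1 genes, 3 fell. Hist1h1b was at 27.7, 32.0 and 17.0 CPM in vehicle replicates 1, 2 and 3 and at 10.4, 20.4 and 2.64 CPM in the treated ones, and fell (log2 fold change -1.47, SE 0.271, adjusted p = 0.00516). The groups overlapped, because treated replicate 2 was above vehicle replicate 3, but each treated culture was below its own pair. Hist1h1a had the same order of cultures, from 29.4 CPM in vehicle replicate 2 to 3.68 CPM in treated replicate 3, and fell as well (log2 fold change -1.34, SE 0.215, adjusted p = 0.00281).

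The H1 genes with the highest CPM differed least. Hist1h1c was at 76.1, 72.4 and 82.5 CPM in the vehicle cultures and 84.8, 66.8 and 86.3 CPM in the treated cultures (log2 fold change 0.04, SE 0.0710, adjusted p = 0.768). It had the highest CPM of the 60 averaged over all 6 cultures, a ranking that favours genes that did not fall, and in the vehicle cultures Hist1h4d and Hist1h1e were higher. Hist1h1e went from 84.8 ± 10.3 to 68.4 ± 13.7 CPM (SD, n = 3 each), and its log2 fold change of -0.32 passed the adjusted p (0.0123) but not the fold threshold. The annotated model of Hist1h2be, an H2B gene, overlaps the 3′ end of Hist1h1e on the same strand, so reads in that stretch cannot be assigned to either gene with certainty.

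The H2A genes were at 98.4 ± 27.8 CPM in sum with vehicle and 50.9 ± 21.5 CPM in the treated cultures (SD, n = 3 each), and 10 of 14 fell. The one with the highest CPM, Hist2h2ac, was at 29.8, 33.2 and 24.0 CPM in the vehicle cultures and 17.3, 24.96 and 11.5 CPM in the treated cultures. Its groups overlapped slightly, and it fell (log2 fold change -0.75, SE 0.118, adjusted p = 0.00263). Hist1h2ak, the next in level, went from 25.03 ± 10.5 to 10.9 ± 5.39 CPM (SD, n = 3 each; log2 fold change -1.25, adjusted p = 0.000938), and its groups also overlapped.

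The H2A genes with the largest falls were low in level. Hist1h2ah was at 0.899, 1.28 and 0.750 CPM in the vehicle cultures and 0.162, 0.317 and 0.0762 CPM in the treated cultures, the last of which is 3 counts. It had the largest fall of the 60 (log2 fold change -2.43, SE 0.360, adjusted p = 0.00195), and 87.9% of its 100-base windows also occur in transcripts of other genes. Hist1h2ag went from 2.09 ± 0.856 to 0.557 ± 0.355 CPM (SD, n = 3 each), and its log2 fold change was -1.96 (adjusted p = 0.00169, SE 0.281). In both genes the treated cultures lay below all vehicle cultures.

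Of the 16 H2B genes, 11 fell, and their summed level went from 178 ± 35.0 CPM in the vehicle cultures to 109 ± 22.9 CPM in the treated cultures (SD, n = 3 each). Hist2h2bb was at 57.2, 36.9 and 26.1 CPM in the vehicle cultures and 16.1, 24.2 and 10.9 CPM in the treated cultures, with no overlap (log2 fold change -1.23, SE 0.179, adjusted p = 0.00180). Hist1h2bk and Hist1h2bn fell most in the class, with log2 fold changes of -1.79 and -1.57 (adjusted p = 0.00310 and 0.00148).

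The H2B gene with the highest CPM over all 6 cultures, Hist1h2bc, was not called, while Hist2h2bb was slightly above it in the vehicle cultures. It was at 44.3, 33.6 and 41.2 CPM in the vehicle cultures and 44.5, 31.9 and 40.7 CPM in the treated cultures, so each treated culture was close to its own vehicle culture (log2 fold change -0.03, SE 0.0720, adjusted p = 0.828).

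The H3 genes had the largest relative difference in summed level, from 207 ± 58.6 CPM in the vehicle cultures to 98.6 ± 46.2 CPM in the treated cultures (SD, n = 3 each), and 10 of 12 fell. Hist1h3c was at 35.3, 36.1 and 19.1 CPM in the vehicle cultures and 14.4, 12.8 and 1.88 CPM in the treated cultures (log2 fold change -1.88, SE 0.280, adjusted p = 0.00199). Hist1h3b had a similar profile, from 23.3 ± 8.56 to 8.13 ± 6.08 CPM (SD, n = 3 each), with a log2 fold change of -1.79 (adjusted p = 0.00349). Treated replicate 3 was far below the other treated cultures in both. The H3 genes with the highest CPM over all 6 cultures, Hist1h3e and Hist2h3b, fell less, with log2 fold changes of -0.61 and -0.92 (adjusted p = 0.00192 and 0.000489), but in the vehicle cultures Hist1h3c was above Hist1h3e.

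The groups overlapped least in the H4 genes. In 12 of the 13 the treated cultures lay below all vehicle cultures, against 8.57% of all genes tested. In all 13 the treated culture was the lower of each pair, against 5238 of the 18277, and 9 passed both thresholds. Hist1h4d, with the highest CPM of the class, was at 110.1, 100.2 and 81.9 CPM in the vehicle cultures and 53.3, 65.9 and 34.9 CPM in the treated cultures (log2 fold change -0.96, SE 0.104, adjusted p = 0.000682). Hist1h4a and Hist1h4f fell most, with log2 fold changes of -1.28 and -1.24 (adjusted p = 0.000534 and 0.00179). Hist1h4c and Hist1h4h, named after their values were seen, passed the adjusted p (0.0114 and 0.0158), but their log2 fold changes of -0.498 and -0.41 did not pass the fold threshold. The median log2 fold change by class was -0.92 for H1, -0.92 for H2A, -1.12 for H2B, -1.17 for H3 and -0.96 for H4.

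**Figure D2:**
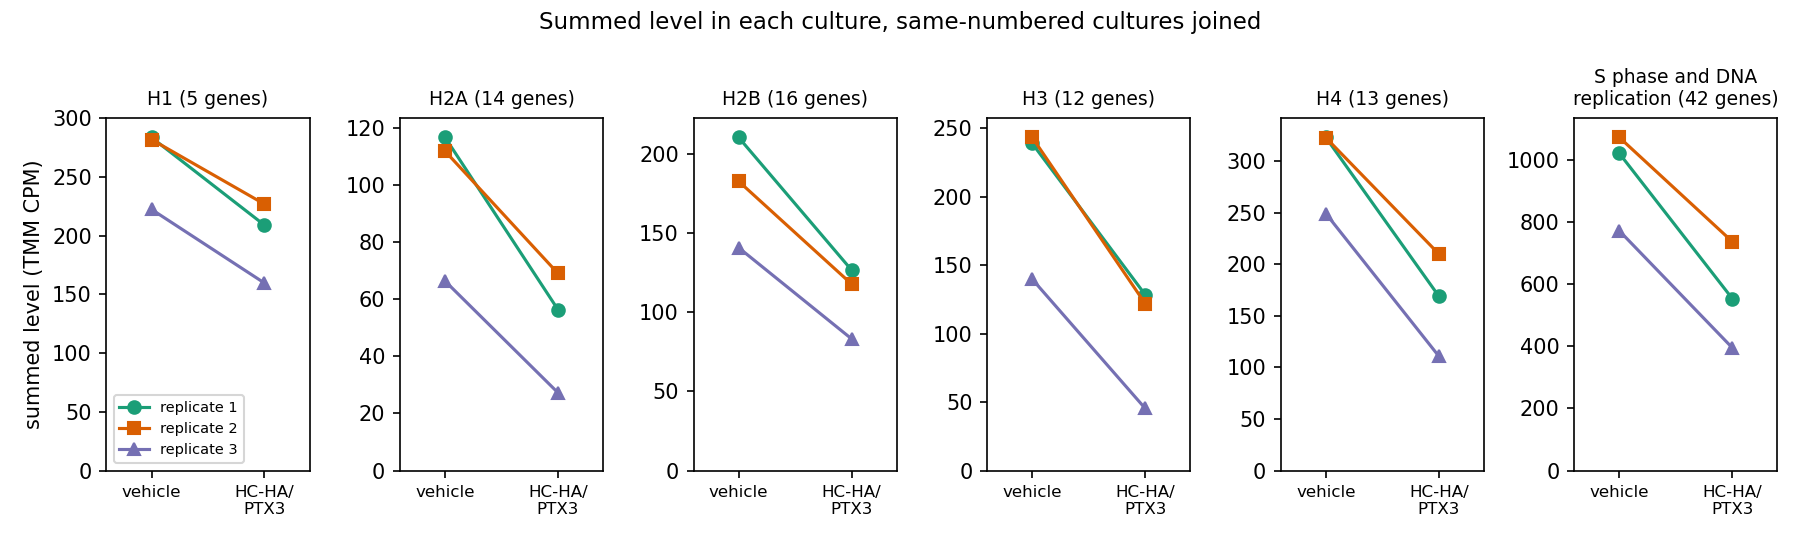
Summed TMM-scaled CPM in each culture for the 5 histone classes and for 42 S phase genes, with same-numbered cultures joined and the axis starting at 0. Every line goes down, and replicate 3 is the lowest culture of both groups in each panel, for example 139.7 CPM in vehicle replicate 3 and 45.4 CPM in treated replicate 3 for H3.

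By cluster, 38 of the 47 Hist1 genes and 5 of the 10 Hist2 genes fell, with median log2 fold changes of -1.15 and -0.59. Hist2h4 had the highest CPM of Hist2 over all 6 cultures, at 46.4, 38.3 and 33.1 CPM in the vehicle cultures and 19.2, 25.6 and 16.1 CPM in the treated cultures, and fell without overlap (log2 fold change -0.96, SE 0.120, adjusted p = 0.00104). Neither Hist3 gene was called, nor was Hist4h4, the single gene of its cluster. Hist3h2ba was at 4.44, 4.26 and 5.80 CPM in the vehicle cultures and 7.06, 4.38 and 7.52 CPM in the treated cultures (log2 fold change 0.37, SE 0.151, adjusted p = 0.120). Hist4h4 was at 6.64 ± 1.34 and 4.89 ± 1.36 CPM (SD, n = 3 each), and its log2 fold change was -0.46 (adjusted p = 0.0650). Whether the clusters differ from each other was not tested.

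The 17 genes that were not called were of different kinds. Hist1h1e, Hist1h4c and Hist1h4h passed the adjusted p but not the fold threshold, and 5 of the 17 had a fitted value above 0: Hist1h1c, Hist2h2be, Hist3h2ba, Hist2h3c2 and Hist2h2aa1. Most of these were named after their values were seen. The near-identical copies Hist2h2aa1 and Hist2h2aa2, and the copies Hist2h3c1 and Hist2h3c2, are all in Hist2, and were at 0.357 to 0.618 CPM on average over the 6 cultures. Hist2h2aa1 had log2 fold change 0.61 and Hist2h2aa2 had -0.13 (SE 0.305 and 0.300, adjusted p = 0.195 and 0.800). All 100-base windows of Hist2h2aa2 and Hist2h3c1 (100%) also occur in the model of Gm20634, which lies across Hist2h2aa1 and Hist2h3c1, or in other models, so reads may have been split or lost between the copies, and these values are uncertain.

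Near the count rule, Hist2h3c1 and Hist1h2bp were the members with the fewest counts, 92 and 122 over all 6 cultures. Outside it, Hist1h1t, a testis linker histone, and Hist1h2al had the most, 48 and 34. Of the other 7 symbols outside it, Hist1h2ba and Hist3h2a had 0 counts in every culture.

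Sequence shared between copies limits how far single histone genes can be separated. Windows of 100 bases from each annotated transcript were looked up in the transcripts of all other genes in GENCODE M21. In 23 genes up to 25% of windows were shared, and 15 of these were called lower, with a median log2 fold change of -0.75. In 26 genes over 25% and up to 75% were shared, with 21 called lower and a median of -1.16, and in 11 genes over 75% were shared, with 7 called lower and a median of -0.92. Falls were therefore present in genes with little shared sequence, among them Hist1h4d and Hist2h4, which shared 0% of their windows. Genes with over 75% shared had a median level of 1.32 CPM, against 11.2 CPM for those with up to 25%. How the counting treated reads with several alignments is not given in the sources used here.

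**Figure D3:**
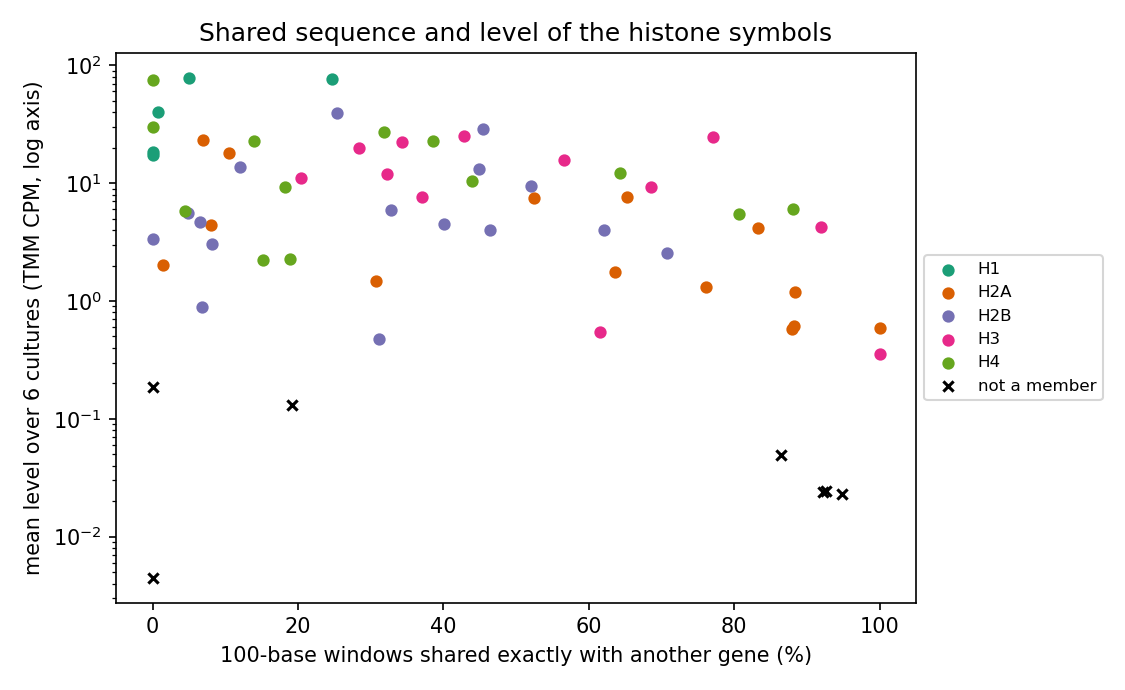
Mean TMM-scaled CPM over the 6 cultures, on a log axis, against the percentage of each gene's 100-base transcript windows that also occur in another gene, for the 60 histone genes coloured by class and the symbols outside the count rule (crosses; symbols with 0 counts are not drawn). Hist2h3c1, at the right edge with 100% shared windows, has the lowest level of the 60, at 0.357 CPM.

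Because 57 of the 60 genes have 1 annotated exon, levels can be set against length. Per kilobase of RefSeq gene span, the vehicle level of these 57 ranged from 0.615 for Hist2h3c1 to 242 CPM per kilobase for Hist1h4d, with a median of 19.5. Hist1h1e, Hist1h1c and Hist2h4 followed Hist1h4d, at 108, 106 and 102 CPM per kilobase. With HC-HA/PTX3 the median was 10.4, and Hist1h4d was at 128 CPM per kilobase. These spans are those of the RefSeq table for GRCm38.p6, in which all 60 were matched, and the lengths used in the counting may differ.

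The stem-loop that ends a clustered histone mRNA could be looked for in most genes. It is shown because it is the feature that sets these mRNAs apart. The letters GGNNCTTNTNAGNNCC, with N for any base, were searched on the transcript strand within 150 bases after the stop codon of the GENCODE M21 models. They were found in 42 genes, in 8 forms, starting 22 to 59 bases after the stop codon. Each form is printed below with a gene that carries it, 5′ to 3′, and the 4 capitals mark the loop between the 6 bases on each side that form the stem.

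Hist1h1c: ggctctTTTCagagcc

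Hist1h3c: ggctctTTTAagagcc

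Hist2h2ac: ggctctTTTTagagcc

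Hist1h3g: ggctctTCTTagagcc

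Hist1h4d: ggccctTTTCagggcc

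Hist2h4: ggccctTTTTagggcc

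Hist1h4a: ggccctTCTCagggcc

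Hist1h4b: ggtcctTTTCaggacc

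The first form was in 23 genes, of which 14 were called lower, and the form of Hist1h3c was in 5, all called lower. The 12 H4 genes with a match had 4 forms, and none of these was in the 30 genes of other classes with a match. In Hist1h1c the 16 bases lie at chr13:23739512-23739527 on the plus strand, in Hist1h3c at chr13:23745047-23745062 on the minus strand, and in Hist1h4d at chr13:23581950-23581965 on the plus strand (GRCm38), each in the 3′ untranslated part of a single exon. Of the 42 genes with a match, 29 were called lower and 13 were not, with a median log2 fold change of -0.96. The stem-loop is present in Hist1h1c, which did not pass the test, so its presence in the annotation did not separate called from uncalled genes.

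In 15 genes the annotation ends within 60 bases of the stop codon without a match, so the stem-loop could not be looked for, and 14 of these were called lower. The other 2 coding genes, Hist1h2bc and Hist2h2be, had no match within 150 bases, and neither was called. Hist1h2bc has 2 annotated exons, and the annotated end of Hist2h2be is 2192 bases after its stop codon. Hist2h2be was at 3.85, 2.84 and 2.23 CPM in the vehicle cultures and 4.34, 3.93 and 2.79 CPM in the treated cultures, so the treated culture was the higher of every pair (log2 fold change 0.32, SE 0.159, adjusted p = 0.190). In 14 genes the annotated end lies 500 bases or more after the stop codon, and 7 of these were called lower (median log2 fold change -0.57), against 36 of 45 with a nearer end (median -1.15). Both genes without a match were chosen for description after their values were seen, and the split by annotated end was not tested.

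Many H2A and H2B genes lie head to head and share the stretch between their starts. Among the 60 genes there were 9 pairs on opposite strands with starts within 500 bases, and each paired an H2A with an H2B gene. In 4 pairs both genes were called lower, and in 5 pairs 1 gene was. Hist1h2ah and Hist1h2bk, with starts 302 bases apart, both fell, with log2 fold changes of -2.43 and -1.79. Their log2 ratio was lower in every treated culture than in every vehicle culture, but barely. It was -2.115 in both treated replicates 2 and 3 and -2.106 in vehicle replicate 1. Hist1h2ah held only 12 and 3 counts in those 2 treated cultures. The mean change was -0.62, with an SD of 0.728 over 3 pairs (two-sided exact permutation p = 0.1, adjusted p = 0.3 over the 9 pairs). With 3 cultures against 3, 0.1 is the smallest p this test can give, so it could call no pair different.

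In 3 pairs the H2A gene was called lower and the H2B gene was not: Hist2h2ac with Hist2h2be, Hist1h2ac with Hist1h2bc, and Hist1h2an with Hist1h2bp. In Hist1h2ad with Hist1h2bf and Hist1h2ai with Hist1h2bl it was the reverse. The log2 ratio of Hist2h2ac to Hist2h2be was 2.95, 3.55 and 3.42 in vehicle replicates 1, 2 and 3 and 1.99, 2.67 and 2.04 in the treated ones. Every treated culture was below every vehicle culture, and the mean change was -1.08 (SD 0.271 over 3 pairs; two-sided exact permutation p = 0.1, adjusted p = 0.3 over 9 pairs). The ratio of Hist1h2ag to Hist1h2bj, a pair with both genes called lower, changed about as much, by -1.06 on average. Its SD was 0.216 over 3 pairs, also with every treated culture below every vehicle culture (exact permutation p = 0.1, adjusted p = 0.3). For Hist1h2ac and Hist1h2bc the mean change of the log2 ratio was -0.63 (SD 0.542, lower in 3 of 3 pairs; exact permutation p = 0.4, adjusted p = 0.6). The permutation test takes no account of the pairing by replicate number. Hist1h2ac itself fell (log2 fold change -0.64, SE 0.194, adjusted p = 0.0434), a call that was lost without replicate 1, 2 or 3 (adjusted p = 0.0542, 0.126 and 0.210). Its log2 fold change was then -0.85, -0.72 and -0.35.

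**Figure D4:**
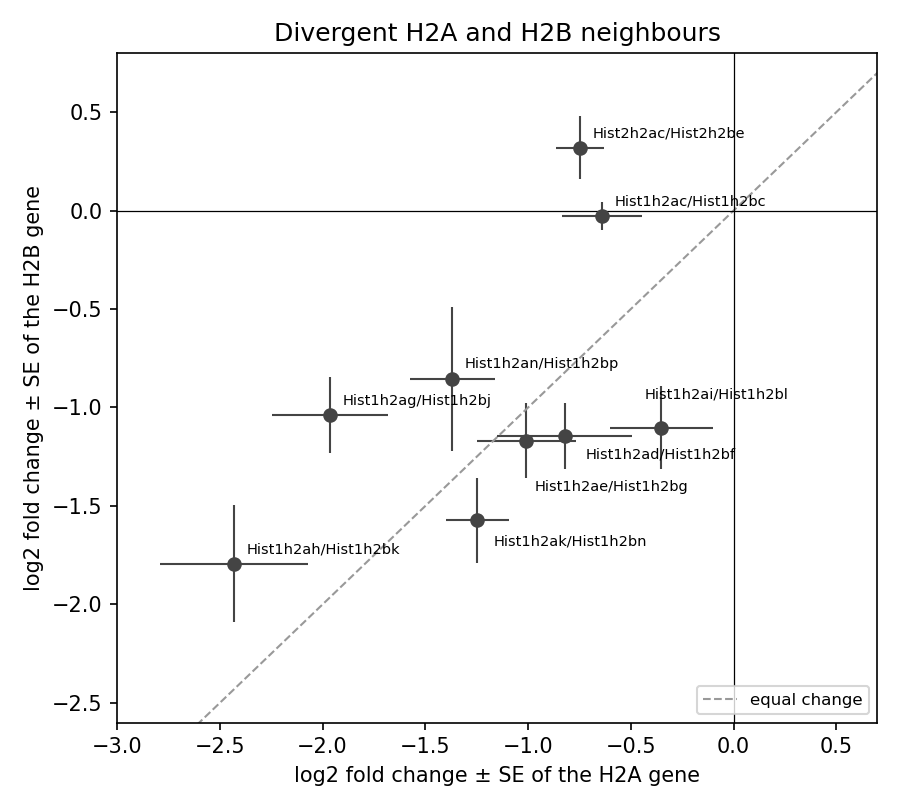
Log2 fold change with its standard error of the H2A gene (horizontal) and of the H2B gene (vertical) in 9 divergent pairs, from the edgeR fit with the replicate block (n = 3 cultures per group). Hist2h2ac/Hist2h2be and Hist1h2ac/Hist1h2bc lie at 0.32 and -0.03 on the H2B axis, and the other 7 pairs at -0.85 or below.

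The promoter windows of 3 of these genes are printed, because each covers most of the stretch shared with the neighbour, and they let 1 pair in which both genes fell and 2 in which 1 gene fell be set side by side. Each of the 3 holds 250 bases before the RefSeq start and 50 from it on (GRCm38.p6), written 5′ to 3′ on the strand of the named gene. Capitals mark matches on either strand to 4 motifs, none of which contains another: TATAAA of the TATA box, CCAAT bound by the factor that includes Nfya, the octamer ATTTGCAT, and the H1 box AAACACA. Hist2h2ac is at chr3:96220831-96221130 on the minus strand, Hist1h2ac at chr13:23683910-23684209 on the minus strand and Hist1h2bk at chr13:22035571-22035870 on the plus strand.

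Hist2h2ac: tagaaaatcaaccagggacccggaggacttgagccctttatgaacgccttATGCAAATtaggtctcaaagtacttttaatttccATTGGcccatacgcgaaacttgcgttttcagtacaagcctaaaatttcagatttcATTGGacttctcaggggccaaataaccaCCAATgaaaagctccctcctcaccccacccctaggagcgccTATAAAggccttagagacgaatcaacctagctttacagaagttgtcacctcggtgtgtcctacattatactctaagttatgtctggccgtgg

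Hist1h2ac: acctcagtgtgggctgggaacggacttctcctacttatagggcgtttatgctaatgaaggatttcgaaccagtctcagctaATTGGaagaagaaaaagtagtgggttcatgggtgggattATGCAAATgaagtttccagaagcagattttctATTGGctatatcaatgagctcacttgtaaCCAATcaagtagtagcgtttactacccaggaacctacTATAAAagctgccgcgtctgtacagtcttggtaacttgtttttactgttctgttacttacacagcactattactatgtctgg

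Hist1h2bk: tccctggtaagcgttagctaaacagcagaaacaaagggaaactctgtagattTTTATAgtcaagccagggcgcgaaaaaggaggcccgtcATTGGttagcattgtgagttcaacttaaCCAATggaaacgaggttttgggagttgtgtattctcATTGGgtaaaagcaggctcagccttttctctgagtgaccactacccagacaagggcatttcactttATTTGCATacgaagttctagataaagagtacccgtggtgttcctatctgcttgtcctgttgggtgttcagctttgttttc

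Each of the 3 windows held 1 TATAAA, 3 CCAAT and 1 ATTTGCAT, and 0 AAACACA. In Hist2h2ac and Hist1h2ac the TATAAA is on the strand of the named gene, close to its start, and in Hist1h2bk it is on the other strand, far from it. The windows of the other pairs were not compared in this way.

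Windows were given for 54 of the 60 genes, 52 windows in the layout above and 3 shifted from it, 1 of them far inside the RefSeq span of Hist1h2be. CCAAT was in 45 of the 54 genes (83.3%), against 37.4% of the 32851 windows in the table, and in every H1, H2A, H2B and H3 gene with a window but in 3 of 12 H4 genes. TATAAA was in 33 (61.1%, against 13.6%). ATTTGCAT, the letters of the octamer read by the factor Pou2f1, was in 11 (20.4%, against 1.74%), which were 5 of 14 H2A and 6 of 13 H2B genes. AAACACA was in 6 (11.1%, against 7.18%), of which 4 were H1 genes. By call, CCAAT was in 85.0% of the genes called lower and 78.6% of those not called, and TATAAA in 67.5% and 42.9%. The 11 genes with ATTTGCAT were all among the 40 called lower with a window, and 0 of the 14 uncalled genes with one held it. This split depends on which genes have a window: the uncalled Hist2h2be and Hist1h2bc have none, and the ATTTGCAT printed for Hist2h2ac and Hist1h2ac lies between the starts of each pair, upstream of these genes too. These shares describe the windows, were not tested, and neighbours in a divergent pair share part of their windows.

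Histones encoded outside the clusters, the replacement histones, are mostly made outside S phase as well. Of 11 listed, 3 fell and 1 rose, with a median log2 fold change of -0.43. At an unadjusted p under 0.05 in edgeR, 8 were lower and 1 higher, against 3411 and 2657 of all 18277 genes. H1f0, H2afx and H2afy passed the adjusted p (0.00359, 0.00698 and 0.0394) but not the fold threshold. Their log2 fold changes were -0.43, -0.46 and -0.24. H3f3b, the most abundant, encodes the H3.3 protein and was at 233 ± 10.9 and 243 ± 11.4 CPM in the vehicle and treated cultures (SD, n = 3 each; log2 fold change 0.06, adjusted p = 0.489). The centromeric H3 variant Cenpa and the macroH2A gene H2afy2 fell, with log2 fold changes of -1.21 and -0.99 (adjusted p = 0.00112 and 0.00174), and H2afv was the other gene that fell. H2afj rose, from 16.2 ± 2.16 to 28.6 ± 1.82 CPM (SD, n = 3 each; log2 fold change 0.82, SE 0.112, adjusted p = 0.00139), with all treated cultures above all vehicle cultures. Summed over the 11, the treated culture held 0.895, 0.951 and 0.896 of its pair's level, against 0.588, 0.653 and 0.521 for the clustered genes.

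The genes that transcribe histone genes and process their mRNAs were not called. Of 21 listed, 0 passed both thresholds in the edgeR fit with the block, and at an unadjusted p under 0.05 there were 6 lower and 3 higher, against 3411 and 2657 of all 18277 genes tested. The median log2 fold change of the list was -0.05. Npat, the coactivator of histone genes in S phase, was at 50.4 ± 3.32 and 44.5 ± 2.71 CPM, and Slbp was at 24.9 ± 1.01 and 21.9 ± 3.86 CPM in the vehicle and treated cultures (SD, n = 3 each). Their log2 fold changes were -0.18 and -0.20 (adjusted p = 0.143 and 0.232). Sympk, a scaffold of the cleavage complex, and Upf1, which takes part in histone mRNA decay, were the most abundant of the list, with log2 fold changes of 0.14 and -0.02. Nfya, a subunit of the CCAAT-binding factor, passed the adjusted p (0.00342) with a log2 fold change of -0.48, below the fold threshold. Cstf2 and Srrt passed the adjusted p as well (0.0125 and 0.0443). Their log2 fold changes were -0.29 and 0.21, so Srrt was higher.

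Of 22 histone chaperones and assembly factors, 6 fell and 0 rose, against 5.38% called lower and 3.32% called higher of all genes tested. At an unadjusted p under 0.05 in the same edgeR fit, 12 were lower and 0 higher, against 3411 and 2657 of the 18277. Asf1b, a carrier of H3 and H4, and Chaf1b, a subunit of the factor that deposits them on newly copied DNA, had log2 fold changes of -1.32 and -1.05 (adjusted p = 0.00289 and 0.00200). The others were Chaf1a, Mms22l, Ssrp1 and Hat1. Nap1l1 and Atrx, the most abundant, were not called, and the median of the list was -0.17. Atrx, Hjurp and Asf1a passed the adjusted p (0.0096, 0.0412 and 0.0274) but not the fold threshold. Their log2 fold changes were -0.40, -0.21 and -0.43.

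Genes of the cell cycle fell with the histone genes. Of 42 S phase and DNA replication genes, 28 fell and 0 rose, against 5.38% called lower and 3.32% called higher of all genes tested. At an unadjusted p under 0.05 in edgeR, 38 were lower and 0 higher, and the median log2 fold change was -0.74. Uhrf1, which maintains DNA methylation, and Tk1, a thymidine kinase, had the largest falls (log2 fold changes -1.80 and -1.75, adjusted p = 0.00255 and 0.000557). The most abundant, the nucleotide reductase gene Rrm1 and the sliding clamp gene Pcna, also fell (log2 fold changes -0.73 and -0.54). All 24 mitosis genes fell, with a median of -1.32, among them the proliferation marker Mki67 (log2 fold change -1.72, SE 0.216, adjusted p = 0.00104) and the cyclin gene Ccna2 (-1.75, SE 0.250, adjusted p = 0.00170). Their summed level was 1451, 988 and 468 CPM in the vehicle cultures and 529, 531 and 119 CPM in the treated cultures, lowest in replicate 3 of both groups, as for the histone genes.

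The summed level of the histone genes followed that of the S phase genes in each culture. Their ratio was 1.15, 1.064 and 1.0598 in vehicle replicates 1, 2 and 3 and 1.24, 1.01 and 1.08 in HC-HA/PTX3 replicates 1, 2 and 3. The groups overlapped in this ratio, while the summed levels themselves did not.

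**Figure D5:**
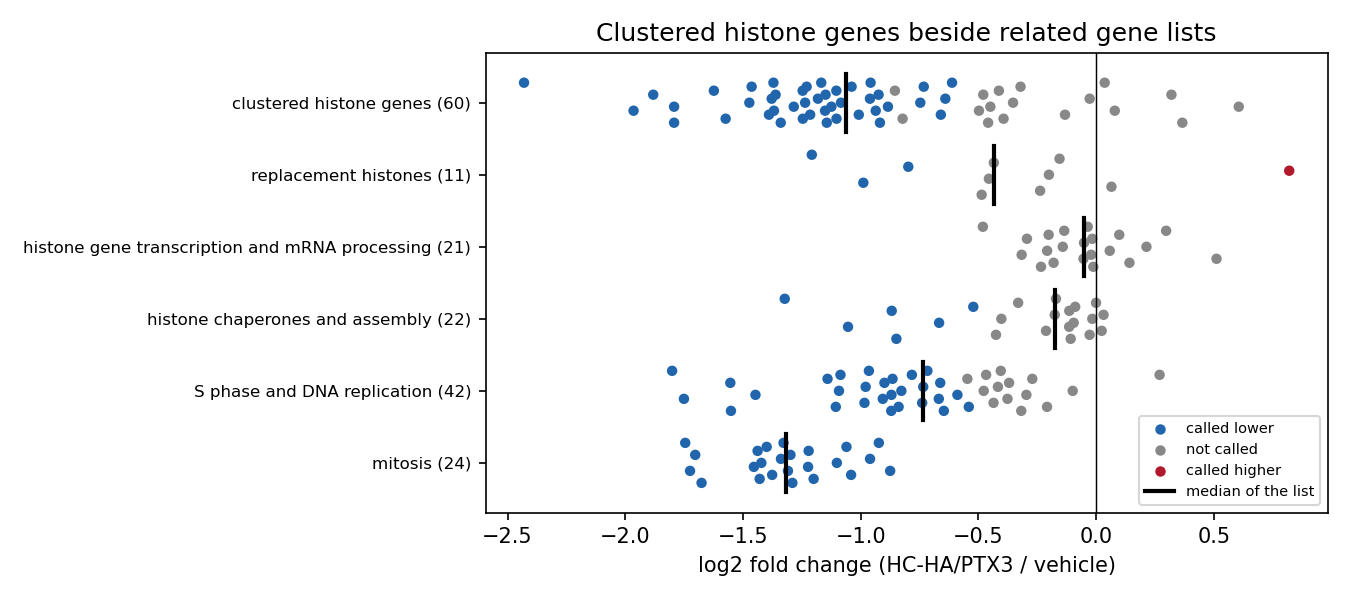
Log2 fold change (HC-HA/PTX3 over vehicle) of each gene in the clustered histone set and in 5 related lists, from the edgeR fit with the replicate block, with the number of genes in brackets and a black bar at each median. The medians are -1.06 for the clustered histone genes, -0.43 for replacement histones, -0.05 for transcription and processing genes, -0.17 for chaperones, -0.74 for S phase genes and -1.32 for mitosis genes.

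The markers of the labelled cell type were present and were not called. The 10 neuron markers summed to 6886, 6183 and 6900 CPM in the vehicle cultures and 7233, 6629 and 7613 CPM in the treated cultures, with Tubb3 the most abundant. None passed both thresholds in the edgeR fit with the block, with 1 lower and 4 higher at an unadjusted p under 0.05.

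Markers of other cells were also present, and some of them also fell. The 6 fibroblast markers summed to 2138, 2152 and 895 CPM in the vehicle cultures and 1151, 1382 and 303 CPM in the treated cultures, lowest in replicate 3 of both groups. Of these, 3 collagen genes fell, Col1a1, Col1a2 and the most abundant, Col3a1, with log2 fold changes of -1.62, -1.11 and -0.96 (adjusted p = 0.000547, 0.00270 and 0.00440). Dcn, another fibroblast marker, was at 115 ± 37.6 and 109 ± 39.4 CPM (SD, n = 3 each; log2 fold change -0.09, adjusted p = 0.327), and Pdgfra and Lum were not called. At an unadjusted p under 0.05 in edgeR, 4 of the 6 fibroblast markers were lower and 0 higher, against 3411 and 2657 of all 18277 genes. The part of fibroblasts in the lower histone levels was not tested.

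Satellite glia markers (6 genes, Apoe the most abundant) summed to 1325, 728 and 347 CPM in the vehicle cultures and 1185, 781 and 387 CPM in the treated cultures, and 0 of 6 was called, with 3 lower and 2 higher at an unadjusted p under 0.05 in edgeR. The sum was lowest in replicate 3 of each group, but the treated cultures were near their pairs. The part of satellite glia in the histone result was not tested.

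Endothelial, mural, macrophage and neutrophil markers gave smaller sums. The 5 endothelial markers summed to 228, 248 and 274 CPM in the vehicle cultures and 229, 276 and 249 CPM in the treated cultures, with Cdh5 the most abundant and 0 called, lower or higher, also at an unadjusted p under 0.05. The 3 mural cell markers summed to 255, 267 and 223 CPM and to 238, 263 and 155 CPM, with Rgs5 the most abundant and Acta2 called lower (log2 fold change -1.03, adjusted p = 0.00873). The other 2, Rgs5 and Kcnj8, were higher at an unadjusted p under 0.05 but not called. The 6 macrophage markers, led by Cd68, summed to 35.6, 44.6 and 35.6 CPM and to 30.1, 39.5 and 24.8 CPM, and C1qa fell (log2 fold change -0.74, adjusted p = 0.0302). Of these 6, 4 were lower and 0 higher at an unadjusted p under 0.05 in edgeR, against 3411 and 2657 of all 18277 genes. The 2 neutrophil markers, S100a8 and S100a9, summed to at most 7.495 CPM in any culture and were not called. None of the listed markers was at 0, and the part of these cells in the histone result was not tested.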

How the data were processed

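The data are 6 RNA libraries from mouse DRG cultures, 3 per group, with groups and numbers taken from the sample labels. The authors depleted ribosomal RNA, aligned to mm10 and used featureCounts, and the deposited values are raw counts. The methods name HISAT2, whereas the headers of the count tables name STAR. The strand setting and the handling of reads with several alignments are not given in the sources used here, and the gene set is named as RefSeq for the alignment and Ensembl for the counting.

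The histone genes were chosen by symbol and count, and the members and lists were chosen with earlier results of these data known. Of 35976 symbols, 18277 passed edgeR's filterByExpr. All of these entered a quasi-likelihood F-test (edgeR 4.0.16, R 4.3.3) after TMM scaling, with the replicate number as a block in place of the batch term in the study's methods, followed by Benjamini-Hochberg adjustment. Every adjusted p in the text is edgeR's unless another test is named. As a check on this pairing, each culture's difference from its group mean (log2 CPM, prior count 2) was correlated over all genes tested. Cultures with the same number gave 0.631, 0.536 and 0.774 and other combinations -0.613 to 0.148. Vehicle 1 with treated 2 (0.104) and vehicle 2 with treated 1 (0.148) also passed the limit of 0.1. The limit thus did not single out the same-numbered pairs, although each culture's highest value was with its own number. Differences from a group mean sum to 0, which lowers the other combinations. The pairing was chosen with earlier results of these data known. Within groups, chi-square divided by its degrees of freedom was 34.1 to 120.0 between libraries, so none was a duplicate. The test was checked on simulated counts.

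Named genes were the 2 with the highest mean level over all 6 cultures and the 2 called ones with the largest change in each class and list, the most abundant gene of Hist2, Hist3 and Hist4, and the 2 nearest the count rule on each side. Others were named after their values were seen. The alternatives were fits with DESeq2 1.42.0, limma-voom (limma 3.58.1) and ComBat-seq (sva 3.50.0), upper-quartile scaling, other count filters and fold thresholds, fits with no replicate block (edgeR smallest adjusted p of 0.244 among the histone genes) and cultures left out. Transcripts and positions are from GENCODE M21, and promoters from RefSeq (GRCm38.p6). Identity between histone proteins was not analysed here.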

Additional observations from a re-analysis of the deposited data

How the results depend on the processing

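The 43 falls depend on comparing same-numbered cultures. With no replicate block, edgeR called 0 of the histone genes and 0 genes in all, with 28 histone genes lower and 0 higher and 2089 genes in all at an unadjusted p under 0.05. All 43 still had fitted values below 0, and the median of the 60 was -0.96. Tested without the block, chosen after seeing the data, DESeq2 called 7 histone genes lower and 343 genes, and limma-voom called 0 and 0, with 2114 genes in all at an unadjusted p under 0.05. The cause of the difference is the construction of the fit, which then counts differences between pairs as error.

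With the replicate block, DESeq2 called 41 histone genes lower, limma-voom 43, upper-quartile scaling 41, and the looser and stricter count filters 45 and 41. ComBat-seq took out the replicate differences first, and limma-trend without a block then called 44 lower and 2127 genes in all. That fit does not allow for the differences already removed, and 9219 of its 18277 genes had an unadjusted p under 0.05. ComBat-seq also called 1 higher, Hist2h2aa1 (log2 fold change 0.63, adjusted p = 0.0299). Testing against the fold threshold itself (glmTreat) left 26 lower and 295 genes in all, and no fold threshold gave 46 and 3505. Leaving out each replicate number or single culture gave 39 to 43 histone genes lower, 0 higher in each, and 878 to 2010 genes in all. The lowest totals, 878, 895 and 957, came when replicate 1 was left out as a pair, from the treated group and from the vehicle group. With the block, a culture without its partner adds nothing to the treatment estimate. Leaving out a single culture is therefore nearly the same fit as leaving out its pair, and not a separate check. Why the totals were lowest without replicate 1 was not tested. No called histone gene reversed under a setting that gave it a fit and an adjusted p. DESeq2 with the block gave no adjusted p for 1 of the 43, and the stricter filter removed 2. For glmTreat only these counts are given, not the values of single genes. The median log2 fold change of the histone genes ranged from -1.16 to -0.84 over the left-out cultures. Depth limits the genes under 1 CPM, which rest on few counts.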
